A study of Mus musculus with 29 samples.

Results

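Genes of cartilage matrix and joint surface were followed through mouse digit tips after nerve injury and amputation. They were Acan, Hapln1, Sox9, Matn1, Matn3, Comp, Cilp2, Clec3a, Prg4 and Mgp, taken by gene name. All 10 were found among the 24411 gene symbols of a time course table and among the 55487 Ensembl identifiers of an amputation table. The question was how these genes differ between the surgery and amputation groups, and whether single libraries carry more joint tissue than others.

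The study sequenced poly(A) RNA of left hindlimb mouse digits in 29 libraries, from tissue distal to the joint that the labels call metacarpophalangeal and without the nail. In spared nerve injury (SNI), the sciatic nerve lost its common peroneal and tibial branches to a cut, and sham surgery left both whole. The digit tip was amputated through the third phalanx 5 days later. The time course table held amputated sham digits (n = 3 on days 7 and 14, n = 2 on day 21) and amputated SNI digits (n = 3 on each of these days). The amputation table held amputated SNI digits and unamputated SNI digits at days 7 and 14 (n = 3 each), so all its animals carried the nerve injury. The unamputated libraries follow their treatment label, although their time and tissue labels still speak of days after amputation and of a regenerate. Strain, age and sex are not used here. The labels place joints of the digit inside the sample.

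Cartilage matrix is a gel of collagen fibrils and of aggrecan, a proteoglycan that hyaluronan and link protein hold in large aggregates. Sox9 is the transcription factor that switches on most of its genes. Matrix Gla protein, coded by Mgp, is a small vitamin K-dependent protein that keeps soft tissue and cartilage from mineralizing, and it is made by fibroblasts and vascular smooth muscle as well as by chondrocytes. The mouse digit tip regrows bone by direct ossification of a blastema.

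Sequences upstream of the start site are shown for the core matrix gene Acan, its link protein gene Hapln1 and Cilp2, a gene that differed with amputation, because Acan and Hapln1 are compared across libraries and Cilp2 between groups. Each window runs from 250 bases before to 50 after the start site, from RefSeq on GRCm38.p6. Such windows were found for 5 of the 10 genes. The end of the Acan window was not found in a GENCODE M21 transcript of that gene, so its start site was not borne out there. The ends of the Hapln1 and Cilp2 windows were found in theirs. Acan lies at chr7:79052976-79053275 on the plus strand, Hapln1 at chr13:89540386-89540685 on the plus strand and Cilp2 at chr8:69887343-69887642 on the minus strand. Capitals mark the SOX-type motif AACAAT, which was searched on both strands together with ACAAAG.
Acan: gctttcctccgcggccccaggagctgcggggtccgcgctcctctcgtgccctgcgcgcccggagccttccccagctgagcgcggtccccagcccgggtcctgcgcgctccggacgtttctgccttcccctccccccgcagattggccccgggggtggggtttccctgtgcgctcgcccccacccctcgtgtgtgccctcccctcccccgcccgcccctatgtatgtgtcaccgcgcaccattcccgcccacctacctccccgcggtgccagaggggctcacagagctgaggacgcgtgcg
Hapln1: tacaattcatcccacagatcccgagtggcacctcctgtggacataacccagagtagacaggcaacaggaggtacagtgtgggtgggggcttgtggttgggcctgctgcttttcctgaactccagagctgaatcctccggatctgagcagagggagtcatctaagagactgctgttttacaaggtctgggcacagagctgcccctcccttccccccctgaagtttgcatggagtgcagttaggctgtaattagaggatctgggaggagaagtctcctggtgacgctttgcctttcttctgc
Cilp2: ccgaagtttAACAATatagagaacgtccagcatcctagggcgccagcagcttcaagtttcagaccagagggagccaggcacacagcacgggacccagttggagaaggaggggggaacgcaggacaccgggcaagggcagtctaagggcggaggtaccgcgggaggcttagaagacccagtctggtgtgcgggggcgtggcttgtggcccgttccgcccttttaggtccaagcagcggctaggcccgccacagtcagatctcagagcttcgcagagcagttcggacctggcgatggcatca
Cilp2 held 1 AACAAT, 241 bases before the start site, and the windows of Acan and Hapln1, like those of Matn1 and Matn3, held neither motif. Among 32851 promoters of the same length, 10.7% held AACAAT, 18.7% held ACAAAG and 27% held at least 1 of them. A match is a description of the letters only.

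Levels are given as CPM, reads relative to the library total after TMM scaling. Total counts were between 35654192 and 56809440 per library in the time course and between 31274245 and 43315729 in the amputation table. A pair of time course libraries stood apart with TMM factors of 0.633 (sham day 21 replicate 1) and 0.761 (SNI day 7 replicate 2). Some of the defining markers of chondrocytes were read in every group, at uneven levels. In amputation libraries Col2a1 was at 6.59 to 15.0 CPM and Col9a1 at 0.0544 to 0.911 CPM, and Matn1 was almost unread. The summed CPM of 11 marker genes, 4 of them members (Acan, Hapln1, Matn1 and Matn3), was between 40.7 and 124 in amputation libraries. The 9 that the time course table lists summed to between 8.55 and 207. Skeletal muscle markers summed to at most 13.6 CPM over 11 genes in any library.

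Per kilobase of merged exon, the 10 genes spanned a wide range of levels. Prg4, which codes for the joint lubricant lubricin, had group means of 232 to 435 CPM per kilobase in the amputation table, above the other members, and of 103 to 170 in the time course. There Mgp (43.5 to 111) and Comp (68.4 to 108) came close, and in SNI digits of day 21 Mgp stood at 106 and Prg4 at 103 CPM per kilobase. Comp, a pentameric glycoprotein of cartilage and tendon, had group means of 88.8 to 104 CPM per kilobase in the amputation table, and Mgp of 24.4 to 64.2. Acan and Hapln1 stayed between 0.344 and 5.68 CPM per kilobase in all groups of both tables. Clec3a is a C-type lectin first found in cartilage. Its group means were 26.5 to 114 CPM per kilobase in the time course and 3.26 to 12.8 in the amputation table. The tables were normalized apart and list different sets of genes. The same annotated length of 591 bases, which may be its coding part alone, was used for both. In amputated SNI digits of day 7 Clec3a averaged 15.7 CPM in the time course and 2.10 CPM in the amputation table. Comp averaged 203 and 264 CPM in the same groups. Why Clec3a differed between the tables was not tested. Exons of Prg4 overlap those of Tpr on the opposite strand, and the other 9 overlap no annotated gene. The kit marks strand, but how reads were counted is not given in the sources used here.

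Matn1, which codes for a matrilin of hyaline cartilage, was almost unread. It had 2 reads in all over the 17 time course libraries and 3 over the 12 amputation libraries. A count of 0 allows up to 3 reads, which is 0.0494 to 0.105 CPM in the time course and 0.0674 to 0.0973 CPM in the amputation table, counting error only. Matn3, a matrilin of growth plate cartilage, was also low, with at most 3.16 CPM in any library.

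**Figure D1:**
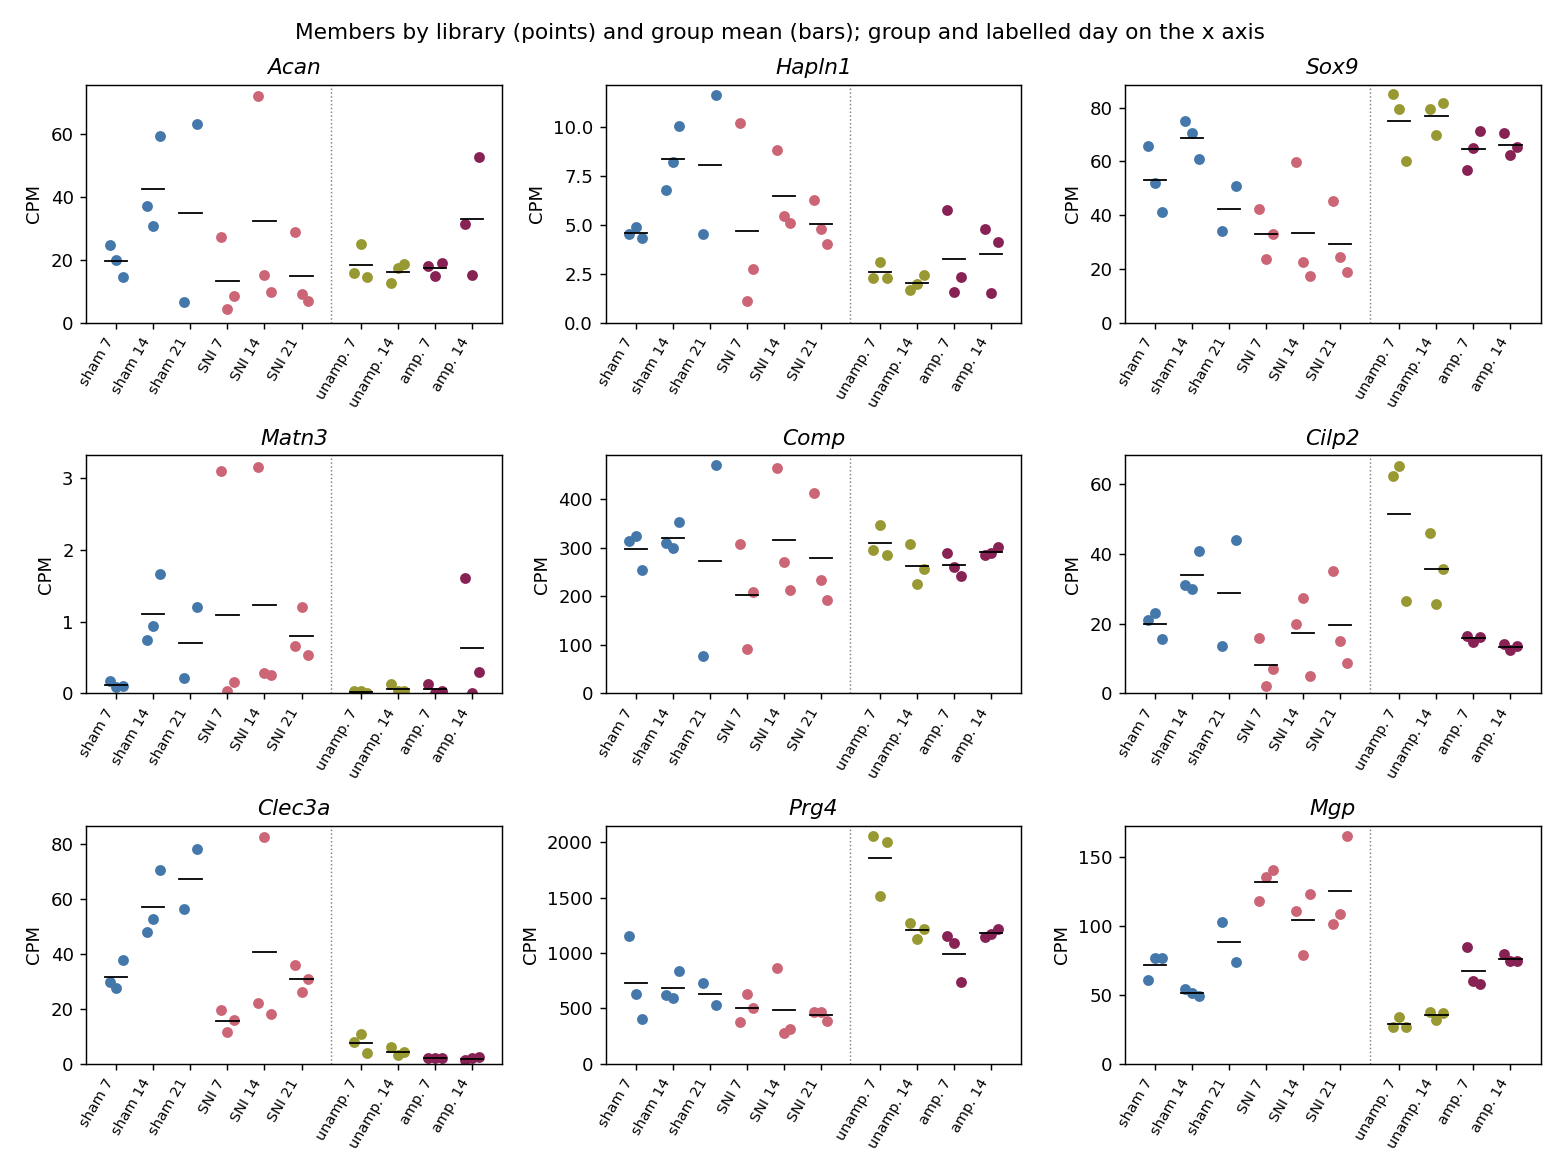
Library-scaled CPM (linear axis) of 9 genes in each of 29 libraries, by group and labelled day; points are libraries and bars are group means, with a dotted line between the separately normalized tables. Mgp is higher in amputated than in unamputated SNI digits without overlap, Clec3a and Cilp2 lower, while Acan spreads from 6.56 to 63.1 CPM within the sham group of day 21.

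The amputation table addresses what amputation changes in digits that all carry the nerve injury. Averaged over days 7 and 14, Mgp rose in amputated digits, while Cilp2, Clec3a and Prg4 fell. These 4 of the 8 tested genes (Matn1 and Matn3 had too few reads) passed an adjusted p of 0.05 over all 17475 tested genes, of which 11.8% passed. One passed higher, where 5.71% of all genes did, and 3 passed lower, where 6.08% did. The median log2 fold change of the 8 was -0.13, against 0.01 over all genes.

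Mgp, the inhibitor of mineralization, was at 26.8, 33.6 and 26.4 CPM in unamputated digits labelled day 7 and at 84.8, 59.9 and 57.7 CPM in amputated digits of that day. At day 14 it was at 37.7, 31.7 and 37.1 CPM without amputation and at 79.3, 74.3 and 74.9 CPM with it. Every amputated library lay above every unamputated one on both days, as 4.29% of tested genes did in that direction. The log2 fold change was 1.16 ± 0.10 (SE, adjusted p = 8.16e-05) on average, 1.22 ± 0.14 at day 7 (adjusted p = 0.00159) and 1.10 ± 0.14 at day 14 (adjusted p = 0.00632), all by edgeR's quasi-likelihood test. The difference between the days was -0.12 (95% interval -0.55 to 0.31), so the days could not be told apart. Without any 1 of the 12 libraries the average stayed between 1.06 and 1.22 and was called each time.

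Cilp2 codes for a protein related to the cartilage intermediate layer protein. It was at 62.4, 65.1 and 26.5 CPM in unamputated digits of day 7 and at 16.5, 14.8 and 16.1 CPM in amputated ones. At day 14 the values were 45.8, 25.7 and 35.7 CPM without and 14.1, 12.5 and 13.5 CPM with amputation. The groups did not overlap on either day, and the amputated libraries lay close together while the unamputated ones spread over up to 2.46-fold. The average log2 fold change was -1.56 ± 0.21 (SE, adjusted p = 0.00281).

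Clec3a was at 8.11, 10.8 and 3.76 CPM in unamputated digits of day 7 and at 6.06, 3.18 and 4.13 CPM at day 14. With amputation it was at 1.98, 2.18 and 2.13 CPM at day 7 and at 1.52, 1.96 and 2.30 CPM at day 14. All amputated libraries were below all unamputated ones, as for Cilp2, a separation shared by 3.42% of tested genes. The average log2 fold change was -1.53 ± 0.24 (SE, adjusted p = 0.00395). Its call at day 7 (-1.85, adjusted p = 0.0220) and that of Cilp2 at day 7 (-1.70, adjusted p = 0.0234) each ended when any of 5 of the 12 libraries was left out, with adjusted p up to 0.0791 and 0.0881. At day 14 Cilp2 passed (-1.42, adjusted p = 0.0413) but kept that call in 2 of 12 such fits, and Clec3a did not pass (-1.21, adjusted p = 0.0695), while DESeq2 called it (adjusted p = 0.0114).

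Prg4 was lower in amputated digits of day 7 and overlapped at day 14. It was at 2059, 1515 and 2007 CPM in unamputated digits of day 7 and at 1152, 1089 and 742 CPM in amputated ones, without overlap. At day 14 it was at 1275, 1124 and 1218 CPM without amputation and at 1142, 1171 and 1217 CPM with it, and the groups overlapped. The log2 fold change was -0.90 ± 0.15 (SE, adjusted p = 0.0138) at day 7 and -0.03 ± 0.15 at day 14 (adjusted p = 0.911), with an average of -0.47 ± 0.11 (adjusted p = 0.0192). The difference between the days was 0.87 ± 0.21 with a p of 0.00142 in edgeR's test, and its adjusted p of 0.757 did not pass. Unamputated digits alone had a log2 difference of -0.63 between days 14 and 7 (adjusted p = 0.208) without overlap, as 5.3% of genes did in that direction. The average call ended without unamputated day 7 replicate 1 (-0.43, adjusted p = 0.0544).

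Over all genes, 1.35% were called at day 7 and 2.75% at day 14, and among the 8 genes 4 and 2 were called. Libraries did not overlap for 10.4% of genes higher and 8.86% lower with amputation at day 7, and for 15.9% and 16.7% at day 14. Fitted with only the libraries of day 7, Mgp alone of the 4 passed. The effect of amputation differed between days for 0% of genes by edgeR and for 18 genes by DESeq2, and 6.25% had an unadjusted p below 0.05. The other 4 did not pass by edgeR on average or on either day, and DESeq2 called Acan at day 14. Sox9, the master regulator, had an average log2 fold change of -0.22 (95% interval -0.41 to -0.03, adjusted p = 0.120) and was at 56.8 to 85.1 CPM over all 12 libraries. Comp differed by -0.04 (95% interval -0.21 to 0.14), the narrowest interval of the 8. Acan had 0.47 (95% interval -0.12 to 1.06) and Hapln1 0.56 (95% interval -0.16 to 1.28).

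In amputated digits of day 14, Acan was at 31.2, 15.3 and 52.6 CPM and Hapln1 at 4.79, 1.54 and 4.15 CPM. Replicates 1 and 3 were high for both genes and replicate 2 was within or below the unamputated range of 12.7 to 18.6 CPM for Acan and 1.69 to 2.42 CPM for Hapln1. Matn3 was at 1.61 CPM in replicate 1 and 0.292 CPM in replicate 3, with 0 reads in replicate 2. The log2 fold change of Acan at day 14 was 1.02 (95% interval 0.19 to 1.86, adjusted p = 0.137 by edgeR), and DESeq2 gave 1.02 with an adjusted p of 0.0256.

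**Figure D2:**
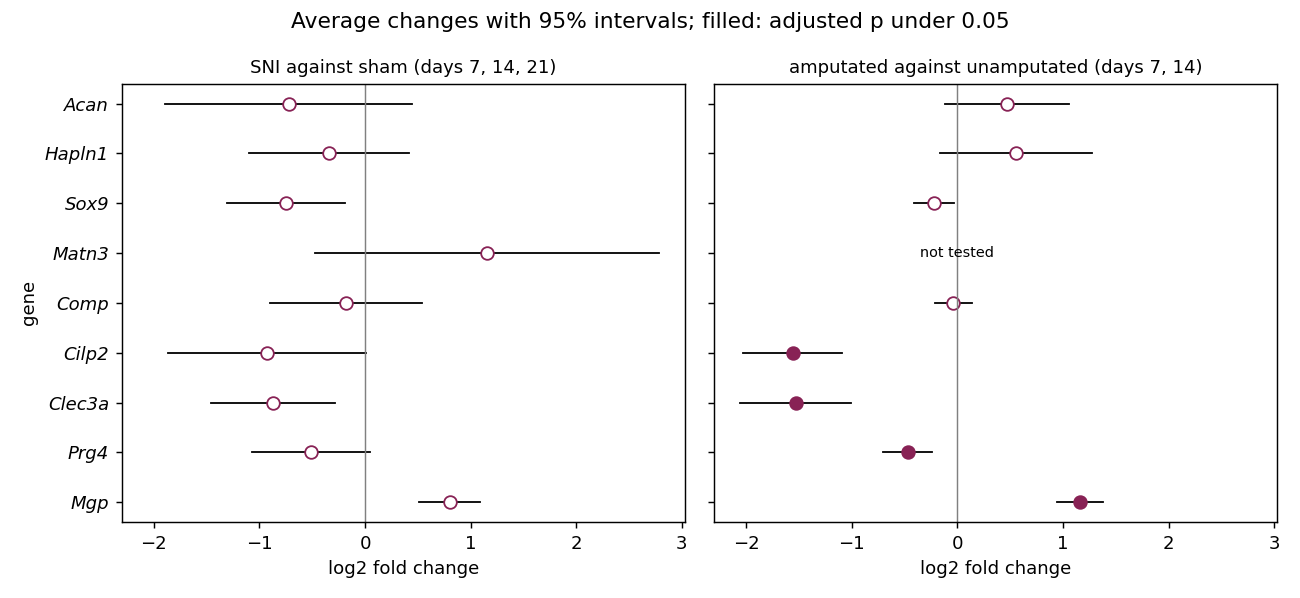
Average log2 fold change of each gene (points) with its 95% interval (lines) for SNI against sham at days 7, 14 and 21 (left) and for amputated against unamputated SNI digits at days 7 and 14 (right); filled points passed an adjusted p of 0.05. Mgp at 1.16 lies right of 0 and Cilp2, Clec3a and Prg4 left of it on the right panel, and none passed on the left panel.

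Lists of other genes placed these changes among related tissues in the amputation average. Of 20 other cartilage genes, Matn4, another matrilin, rose (log2 fold change 0.54, adjusted p = 0.0362) and Chad, a cartilage leucine-rich repeat protein, fell (-0.88, adjusted p = 0.0172). Of 9 tested chondrocyte markers, Acan and Hapln1 among them, 0 passed in edgeR's test, and 8 had a positive fold change (median 0.32). Of 7 genes of hypertrophic cartilage, 3 rose: the collagenase gene Mmp13 (3.31, adjusted p = 0.0266), Ibsp (1.77, adjusted p = 0.0383) and the parathyroid hormone receptor gene Pth1r (0.75, adjusted p = 0.00945). These 3 are also active in bone, and Col10a1, which defines hypertrophic chondrocytes, had a value of -0.37 and did not pass (adjusted p = 0.0745).

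Of 10 osteoblast and osteocyte markers 3 rose, namely Runx2 (1.76, adjusted p = 0.00279), Dmp1 (1.67, adjusted p = 0.00644) and Ibsp. All 10 had a positive fold change on average over both days, with a median of 0.94, against 0.01 over all genes. Days and libraries were not alike. Bglap was at 12.4, 14.7 and 19.6 CPM with and 25.6, 35.2 and 6.04 CPM without amputation at day 7. At day 14 it was at 104, 31.1 and 106 CPM with and 45.6, 29.7 and 23.7 CPM without. Amputated replicate 2 thus lay within the unamputated range of day 14. Runx2 was at 8.40 to 26.3 CPM in amputated and 4.64 to 6.42 CPM in unamputated libraries. Among 16 tested genes of mineral balance and the vitamin K cycle, 3 rose. They were Vkorc1, which recycles vitamin K (0.38, adjusted p = 0.00375), Gas6, another vitamin K-dependent protein (0.42, adjusted p = 0.00616), and Spp1, which codes for osteopontin (1.62, adjusted p = 0.0259).

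Of 11 genes of synovium and joint surface, 1 rose, Htra1 with 0.26 (adjusted p = 0.0345), and of 8 tendon genes 0 passed. Among possible other sources of Mgp, 1 of 7 dermal fibroblast genes rose, Lum with 0.90 (adjusted p = 0.0376), and 0 of 6 vascular smooth muscle genes passed. Of 6 endothelial genes 4 rose, led by Vwf with 0.61 (adjusted p = 0.00638). Of 7 tested keratinocyte genes 4 fell, with Krt1 at -0.78 (adjusted p = 3.14e-04), and of 5 adipocyte genes 1 rose, Fabp4 with 0.44 (adjusted p = 0.0249). Macrophage, neutrophil, erythroid and skeletal muscle lists had 0 calls by edgeR, with medians of 0.10, 0.95, 0.90 and -0.03. Summed dermal fibroblast markers were at 2803 to 5508 CPM in amputated and 2973 to 4132 CPM in unamputated digits at day 7, and at 3439 to 11455 and 3002 to 3761 CPM at day 14. The collagen genes Col1a1 (7901, 1188 and 6832 CPM in replicates 1, 2 and 3) and Col3a1 (1913, 692 and 2350 CPM) made most of the amputated day 14 sums. Dcn did not follow them (932, 1083 and 1020 CPM). The part of dermal fibroblasts in the change of Mgp was not tested. In bulk tissue fewer cells of a type and less RNA per cell cannot be told apart.

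The time course addresses what nerve injury changes in amputated digits. None of the 9 tested genes passed between SNI and sham at days 7, 14 or 21 or on average, where 0 of 16084 genes were called by edgeR, a share of 0%. At an unadjusted p of 0.05, 14% of all genes passed on average, 13.6% at day 7, 5.93% at day 14 and 2.2% at day 21, and DESeq2 called 163 genes on average, among these Mgp. An SNI effect that differed between days was called by edgeR for 0 genes and by DESeq2 for 3, and 3.66% had an unadjusted p below 0.05. The median log2 fold change of the 9 was -0.51, against 0.01 over all genes, with 2 positive and 7 negative.

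Mgp had higher values in SNI than in sham digits on days 7 and 14. It was at 60.7, 76.7 and 76.7 CPM in sham digits and 118, 136 and 141 CPM in SNI digits at day 7. At day 14 it was at 54.4, 51.1 and 49.3 CPM in sham and 110, 79.1 and 123 CPM in SNI digits. The groups did not overlap on these days, which held for 13.7% and 11% of all genes in that direction. At day 21 they did, with 103 and 74.0 CPM in sham and 101, 109 and 166 CPM in SNI digits, and 4.36% of genes were higher without overlap.

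The average log2 fold change of Mgp was 0.80 ± 0.13 (SE, 95% interval 0.51 to 1.09, adjusted p = 0.288 by edgeR). DESeq2 gave 0.79 with an adjusted p of 1.26e-04, and over the other alternatives and each library left out the adjusted p lay between 0.0514 and 0.609. All SNI libraries compared here were from amputated digits, so both comparisons hold amputated SNI animals but share no library. Amputated SNI digits had lower Mgp in the amputation table, with 57.7 to 84.8 CPM at day 7, against 118 to 141 CPM here. At day 14 they had 74.3 to 79.3 CPM there and 79.1 to 123 CPM here, but the tables were normalized apart.

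Clec3a was at 29.6, 27.5 and 37.9 CPM in sham and 19.4, 11.6 and 16.0 CPM in SNI digits at day 7. At day 14 SNI replicate 2 stood at 82.5 CPM, beside 22.0 and 18.0 CPM in the other replicates and 48.0, 52.7 and 70.7 CPM in sham. At day 21 sham had 56.5 and 78.3 CPM and SNI 36.0, 26.1 and 31.0 CPM. The average log2 fold change was -0.87 ± 0.27 (SE, adjusted p = 0.337), and without SNI day 14 replicate 2 it was -1.21 and was called (adjusted p = 0.0292).

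Sox9 had an average of -0.75 ± 0.26 (SE, adjusted p = 0.337), with 60.9 to 75.1 CPM in sham and 17.5 to 59.7 CPM in SNI digits at day 14. Cilp2 had -0.93 ± 0.43 (adjusted p = 0.359) and Prg4 -0.51 ± 0.26 (adjusted p = 0.379). Without overlap, SNI was lower for Clec3a at days 7 and 21, for Sox9 and Cilp2 at day 14 and for Prg4 at day 21, where 23.8%, 12.2% and 3.3% of all genes were at days 7, 14 and 21. The 95% intervals of Cilp2 and Prg4 included 0. So did those of the remaining genes, with Acan at -0.72 (95% interval -1.89 to 0.44), Hapln1 at -0.34, Comp at -0.18 and Matn3 at 1.16.

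The lists of other genes had 0 calls between SNI and sham by edgeR on average. Of 18 tested other cartilage genes 12 had a negative fold change, with a median of -0.25, and Col2a1, the main fibrillar collagen of cartilage, had -1.26 (adjusted p = 0.352). Synovium and joint surface (0.15), tendon (0.08) and hypertrophic cartilage (0.05) had medians nearer to the 0.01 of all genes. All 6 neutrophil genes had positive values with a median of 3.15. That median was 7.11 at day 7, 2.91 at day 14 and -1.01 at day 21, and SNI day 7 replicate 2 alone summed to 14088 CPM of neutrophil markers, beside 8.70 to 258 CPM in the other 16 libraries. Without it the average median was 1.27, that at day 7 was 1.04, and that of other cartilage genes was -0.12. With all libraries, macrophage genes had an average median of 0.53 (6 of 6 positive) and adipocyte genes of 0.88 (5 of 5 positive). The macrophage median was 0.51 at day 7, 1.44 at day 14 and -0.24 at day 21 (2 of 6 positive). That of adipocyte genes was 2.06, 0.68 and -0.16 (2 of 5 positive at day 21). The part of these cell types in the values of the cartilage genes was not tested.

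The width of these intervals goes with large differences between libraries of 1 group. Acan was at 6.56 and 63.1 CPM in sham digits of day 21, a 9.62-fold range. In SNI digits it was at 27.2, 4.41 and 8.47 CPM at day 7, at 72.1, 15.1 and 9.71 CPM at day 14, and at 28.9, 9.20 and 6.81 CPM at day 21. In each SNI group 1 library, numbered replicate 1, lay well above the others, while sham digits of day 7 (24.6, 19.9 and 14.6 CPM) and day 14 (37.2, 30.8 and 59.4 CPM) were closer together.

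Within groups, the SD of Acan on the log2 CPM scale was 1.23, larger than that of 96.5% of tested genes, whose median SD was 0.47. Matn3 had 1.58, Cilp2 1.02, Hapln1 0.78 and Comp 0.77. Mgp had an SD of 0.26, and 20.4% of genes varied less. Without both libraries of low TMM factor, Acan had 1.01 and stayed above 97.1% of genes, Comp had 0.42 and Hapln1 0.53. Mgp kept 0.26, with 36.9% of genes varying less, as the median gene went to 0.33. In the amputation table Acan had 0.52, above 87.8% of genes, and Hapln1 0.66, where the median gene had 0.20. Mgp was at that median, with 0.20.

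**Figure D3:**
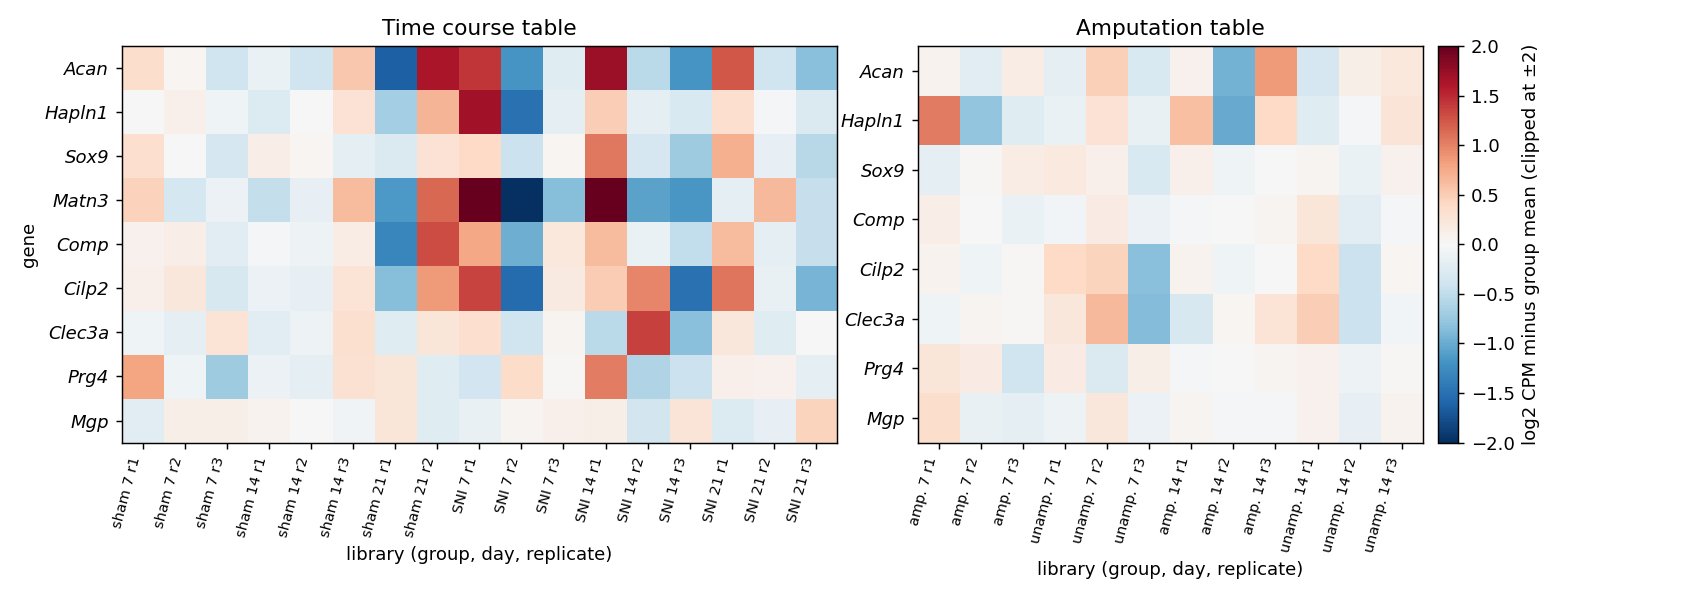
Deviation of each gene from its group mean (log2 CPM, colour) in every library of the time course (left) and amputation table (right). In the time course Acan, Hapln1, Comp and Cilp2 are high together in SNI day 7 replicate 1 and sham day 21 replicate 2 and low together in SNI day 7 replicate 2 and sham day 21 replicate 1, while Mgp stays pale with an SD of 0.26. The 2 sham libraries of day 21 mirror each other because their group holds no others.

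Deviations from the group mean were then compared between genes across the 17 libraries. Comp followed Acan most closely, with a Pearson r of 0.94 and a Spearman rho of 0.94 (both with an exact permutation p of 1.29e-04 within groups and an adjusted p of 0.00103 over 8 relations). Sox9 had an r of 0.85 (rho 0.83), Hapln1 0.82 (rho 0.90), Matn3 0.82 (rho 0.80) and Cilp2 0.81 (rho 0.80), with adjusted exact permutation p of 0.00274, 0.00231, 0.0195 and 0.0323 for r and 0.00549, 0.00549, 0.0230 and 0.0206 for rho. These 5 relations kept an r of 0.76 or more without the 2 libraries farthest from the median of Acan. Group means were not taken anew, so sham day 21 replicate 1 kept a deviation that mirrors the dropped replicate 2, which makes this a weak check. With group means taken anew without both libraries of low TMM factor, the 5 had r from 0.74 for Cilp2 to 0.98 for Comp. Clec3a (0.19), Prg4 (0.25) and Mgp (-0.51) did not pass.

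Many other genes also followed Acan. Of all tested genes, 26.2% had an r above 0.80 with Acan, and 25.0% had a higher r than Hapln1. For Comp the share was 5.99% and for Sox9 21.4%. Without both libraries of low TMM factor, 21.4% of genes were above 0.80, and Comp, with an r of 0.98, was exceeded by 0.0622% of genes and Sox9, with 0.90, by 9.58%, while Hapln1 (0.79) was exceeded by 22.3%. The 5 genes most like Acan were Ssc5d, Aebp1, Cep162, Fndc1 and Ptprm, with r between 0.98 and 0.99 over 17 libraries. Medians of r over marker lists were 0.82 for 7 other chondrocyte markers, 0.91 for endothelium, 0.74 for vascular smooth muscle and 0.64 for dermal fibroblasts, and -0.90 for adipocytes. Lists of tissues other than cartilage thus moved with Acan too. Within the list of smooth muscle markers, Myh11 had an r of 0.96 and Tagln of -0.91.

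Gene length moved with these deviations. Of the genes with a known merged exon length (96.3% of those tested), 59.7% of the longest 20% (7257 bases or more) had an r above 0.80 with Acan, against 2.26% of the shortest 20% (2239 bases or less). The median r was 0.87 in the longest and -0.74 in the shortest class. Across genes, r with Acan and length had a Spearman rho of 0.53, a description over genes that are not independent replicates.

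A balance of long against short genes was therefore taken in each library, as the mean log2 CPM of the longest 20% of genes minus that of the shortest 20%. As a deviation from the group mean it ran from -1.16 in sham day 21 replicate 1 to 1.16 in sham day 21 replicate 2, and from -0.80 in SNI day 7 replicate 2 to 0.88 in SNI day 14 replicate 1. The 2 sham libraries of day 21 mirror each other because that group holds no others, so they give 1 contrast. Acan, of 7469 bases, had an r of 0.96 with the balance over 17 libraries and Comp, of 2967 bases, had 0.97. The r was 0.84 for Sox9, 0.78 for Cilp2, 0.75 for Hapln1 and 0.73 for Matn3. Clec3a (591 bases) had 0.16, Prg4 (4280 bases) 0.23 and Mgp (1187 bases) -0.54.

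With the balance removed from both genes, r with Acan was 0.62 for Matn3, 0.51 for Hapln1, 0.34 for Cilp2, 0.30 for Sox9 and 0.16 for Comp. Differences in Acan between time course libraries of 1 group cannot be told apart from a difference between long and short genes at large.

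**Figure D4:**
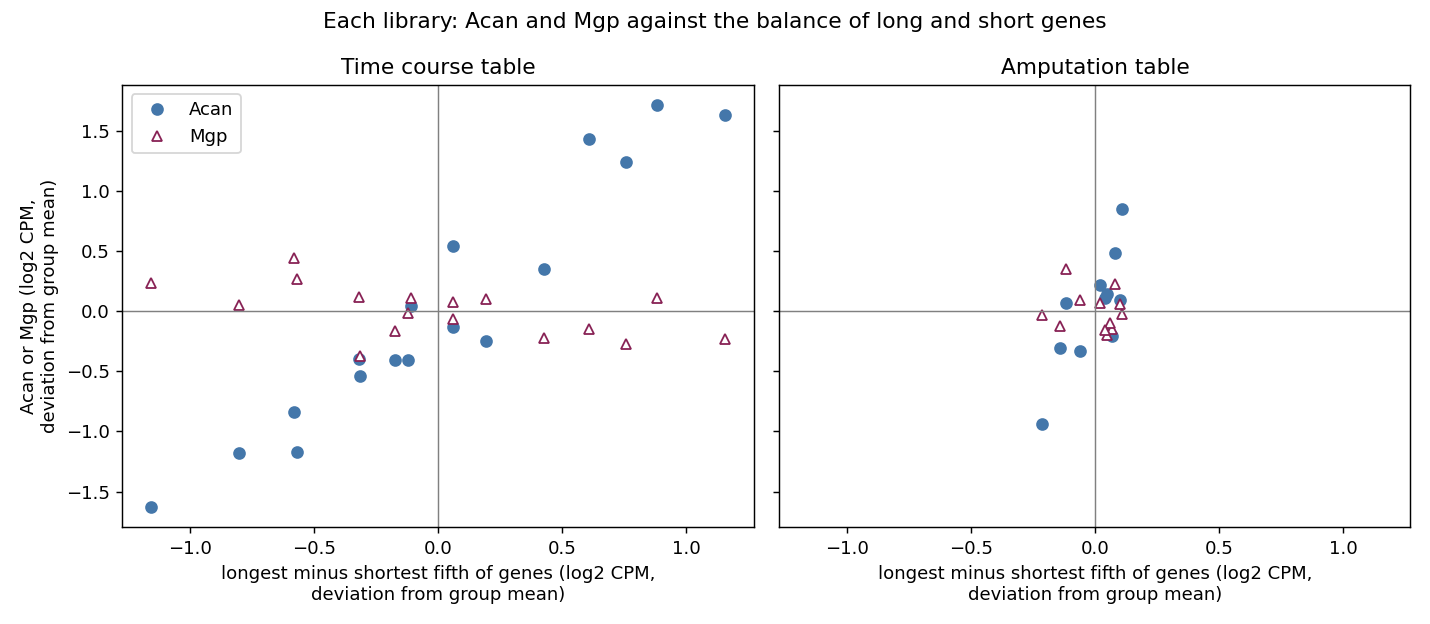
Deviation of Acan (filled circles) and Mgp (open triangles) from the group mean in log2 CPM, against the deviation of the longest minus the shortest 20% of genes in the same library, for 17 time course (left) and 12 amputation libraries (right). Acan follows the balance in the time course (r = 0.96) over a range of -1.16 to 1.16 and in the amputation table (r = 0.74) over a range of -0.21 to 0.11.

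The balance also differed between the surgery groups. Centred on the mean of the table, it was 0.29 to 1.03 in sham and -1.33 to 0.08 in SNI digits at day 7, and 0.66 to 0.84 in sham and -0.66 to 0.79 in SNI digits at day 14. At day 21 it was -1.76 and 0.56 in sham and -0.95 to 0.39 in SNI digits. With the balance as a covariate, the SNI average of Acan was 0.10 (95% interval -0.27 to 0.47), that of Comp 0.47 (adjusted p = 0.0539) and that of Hapln1 0.061, all with the sign reversed. The average of Acan joined days of opposite sign. They were 0.92 (95% interval 0.29 to 1.55) at day 7, 0.49 (-0.11 to 1.08) at day 14 and -1.10 (-1.74 to -0.46) at day 21. None of these was called, nor was their difference between days (adjusted p = 0.909 by edgeR). Sox9 went to -0.48 and Cilp2 to -0.43, both nearer to 0, and Matn3 to 2.07. Mgp had 0.69 ± 0.11 (SE, adjusted p = 0.0514), Clec3a -0.81 and Prg4 -0.42, and 0 of 16084 genes were called.

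In the amputation table the balance varied less, between -0.41 and 0.18 around the mean of the table. At day 7 it was -0.08 to 0.10 with and -0.04 to 0.18 without amputation. At day 14 the groups did not overlap, with -0.41 to -0.09 in amputated and -0.0040 to 0.10 in unamputated digits. With it as a covariate, Mgp had an average log2 fold change of 1.11 ± 0.13 (SE, adjusted p = 0.00325), and Cilp2, Clec3a and Prg4 had -1.36, -1.33 and -0.56 and no longer passed (adjusted p = 0.0569, 0.0766 and 0.0748), while at day 7 all 4 passed. At day 14 the calls of Mgp (1.03, adjusted p = 0.0859) and Cilp2 (-1.14, adjusted p = 0.415) ended.

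Acan had an r of 0.74 with the balance within groups of the amputation table too. With the covariate its average log2 fold change went from 0.47 to 0.95 (95% interval 0.42 to 1.49, adjusted p = 0.0834) and that at day 14 from 1.02 to 1.72 (adjusted p = 0.132), neither of them called.

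No relation with Acan passed over the 12 amputation libraries. Hapln1 had an r of 0.68 (adjusted exact permutation p = 0.211 over 7 relations), and 3.54% of all genes had a higher r. With the balance removed, its r was 0.72. Among all genes 0.761% had an r above 0.80, and Dnajb5, Tnn, Wnt9a, Pcdhb16 and Arhgef7 were most like Acan, with r between 0.91 and 0.93. Tnn codes for a matrix protein, tenascin-W.

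Within groups, the genes most like Mgp in the amputation table were Scara5, Fbln1, Ubtd2, Htra1 and Arf2, with r between 0.95 and 0.96 over 12 libraries. Of the members, Comp (0.77) and Hapln1 (0.66) were nearest to Mgp there, where the 95th percentile of r over the genes compared was 0.68. In the time course both had the opposite sign, with -0.52 for Comp and -0.39 for Hapln1, and no tested member had a positive r with Mgp. The genes most like Mgp in the time course were Mterf1a, Tyrp1, P2ry1, Zfp712 and Vps37d, with r between 0.82 and 0.87. No gene was among the 5 in both tables.

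Marker sums were also compared between libraries. In the time course, 7 other chondrocyte markers followed Acan (median r 0.82), and Acan followed the balance of long and short genes (r = 0.96). Tissue carried along cannot be told apart from that balance in the chondrocyte sums there. In SNI digits of day 7, chondrocyte markers summed to between 8.55 and 102 CPM, osteoblast and osteocyte markers to between 81.1 and 883 CPM and tendon markers to between 73.0 and 472 CPM. Synovium and joint surface genes varied less, with 303 to 538 CPM in the same libraries. In sham digits of day 14, where the balance of long and short genes was steadiest within the time course, chondrocyte markers were at 127 to 173 CPM and tendon markers at 550 to 670 CPM. The 2 sham libraries of day 21 spread widely too, with chondrocyte markers at 17.8 and 135 CPM and tendon markers at 248 and 758 CPM. In amputated SNI digits of day 14, chondrocyte markers were at 48.7 to 124 CPM, tendon markers at 230 to 586 CPM and osteoblast markers at 140 to 480 CPM. Without amputation they were at 51.1 to 54.8, 271 to 351 and 113 to 160 CPM. Col11a2 (70.3, 14.2 and 49.6 CPM in replicates 1, 2 and 3) and Acan (31.2, 15.3 and 52.6 CPM) made most of the amputated chondrocyte sums. Col2a1 did not follow them and was lowest in replicate 1 (6.59, 12.4 and 11.2 CPM). Whether more joint tissue was carried along in single libraries was not tested beyond these sums.

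**Figure D5:**
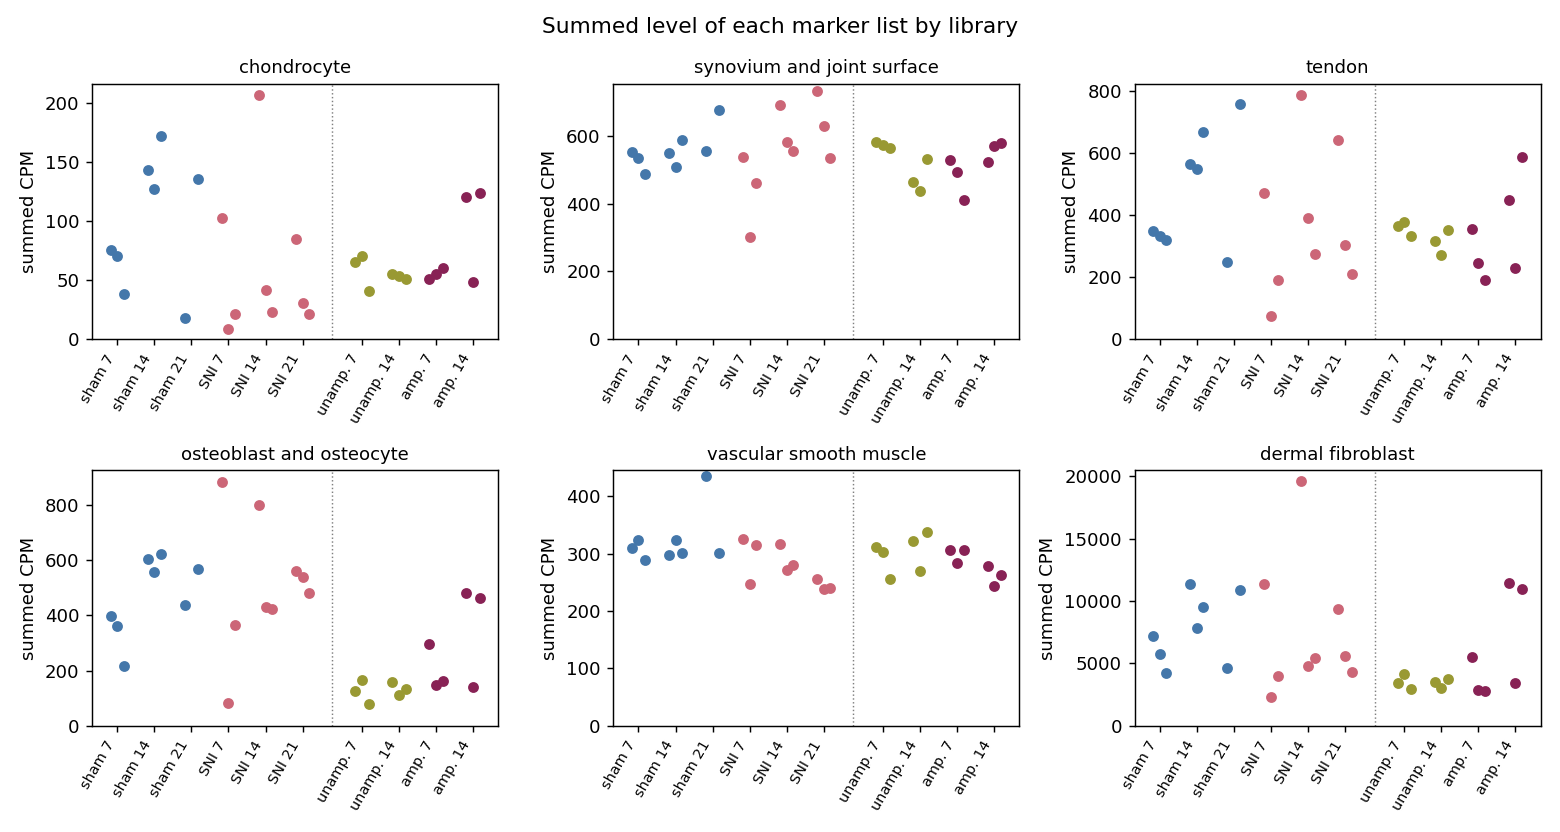
Summed CPM (linear axes from 0) of 6 marker lists in each of 29 libraries, by group and labelled day, with a dotted line between the separately normalized tables. Chondrocyte, tendon and osteoblast sums spread widely within SNI groups of the time course (8.55 to 102 CPM for chondrocyte markers at day 7). Chondrocyte (17.8 to 135 CPM) and tendon sums (248 to 758 CPM) also do so in sham digits of day 21. Synovium and joint surface sums stay within 303 and 733 CPM.

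Change with time within a group was also tested. None of the tested members passed between day 14 or 21 and day 7 in sham or SNI digits of the time course, nor between days 14 and 7 in amputated or unamputated SNI digits, by edgeR. In the time course 0 genes of all were called by edgeR. At an unadjusted p of 0.05 the share was 1.96% and 20.3% in sham digits of days 14 and 21 against day 7, and 3.03% and 3.87% in SNI digits, with 3, 41, 1 and 9 genes by DESeq2. After amputation 0.607% of genes were called between days, and in unamputated digits 0.303%. In sham digits Acan, Hapln1, Matn3, Cilp2 and Clec3a were higher at day 14 than at day 7 in every library, with log2 differences of 1.11, 0.86, 3.17, 0.77 and 0.85, and Mgp was lower in every library (-0.47). Among all genes 8.11% were higher and 9.39% lower without overlap, and the adjusted p of these differences was 1.00.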

How the data were processed

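Raw counts per gene and library were used as deposited by the authors, in 2 tables with 17 and 12 libraries. Libraries were made from 500 ng of total RNA with poly(A) selection, a strand-specific kit and 9 PCR cycles, per the labels' protocols. Reads were placed on GRCm39, per the submitters' processing notes. The aligner and counter were not given in the sources used here. GENCODE M21 gave symbols for 55141 of the 55487 identifiers and merged exon lengths, and RefSeq gave promoter windows on GRCm38.p6. No other coordinates were used.

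Each table was fitted apart. Genes passing filterByExpr (minimum count 10, minimum total 15) were scaled by TMM and fitted with the robust quasi-likelihood model of edgeR 4.0.16 in R 4.3.3, with 1 mean per group. The Benjamini-Hochberg adjustment ran over all 16084 and 17475 tested genes, and calls were made at an adjusted p below 0.05. An SE is the fold change divided by the square root of its F statistic. Likeness used log2 CPM (prior count 2) minus the group mean, with all arrangements of libraries within groups (15552 in the time course, smallest possible p 6.43e-05) in a two-sided exact test. It covered 8 and 7 relations because Matn1, and Matn3 in the amputation table, were not tested. Genes called most like another had a mean CPM of at least 1 and no predicted gene model. From each list of other genes, at most 4 with the smallest p were named per comparison, and genes named from likeness to marker lists are the highest and lowest of a list. Bglap was named besides, after seeing its values.

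Alternatives were RLE size factors, no filter, DESeq2 1.42.0, only the groups compared, a replicate block and each library left out. Chosen after seeing the data were the fit without both libraries whose TMM factor was below 0.8, likeness with libraries left out, and the balance of long against short genes as a covariate. Simulated counts served to check only that known fold changes were recovered on average. They were drawn for each gene apart, without an effect shared across the genes of a library, so they do not test calls where such an effect is present. The labels call samples biological replicates. Members and lists were chosen with earlier results of these data known.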

Additional observations from a re-analysis of the deposited data

How the results depend on the processing

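Of 577 fold changes of members under alternatives, 526 kept their direction and side of the threshold, 35 lost and 8 gained a call, and 8 reversed. With each library left out, Acan ranged from -1.18 to 0.080 and Comp from -0.43 to 0.43 in the SNI average, reversing without sham day 21 replicate 2, where the lone library left is taken to vary as other groups do. Comp ranged from -0.088 to 0.026 in the amputation average, reversing without unamputated day 7 replicate 2 and without day 14 replicate 1, and Prg4 from -0.083 to 0.0072 at day 14, reversing without unamputated day 14 replicate 1. With the balance of long and short genes as covariate, the SNI averages of Acan, Hapln1 and Comp reversed to 0.10, 0.061 and 0.47. Whether these values have a common cause was not tested.

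Members called numbered 0 in each SNI comparison, and DESeq2 called 1 on average, 1 at day 7 and 1 at day 14, Mgp each time, and 1 between days in unamputated digits (0 by edgeR). Chosen after seeing the data, list medians were also taken without the library highest in neutrophil markers. After amputation 4 were called on average, 4 at day 7 and 2 at day 14. The balance as covariate left 1 on average and 0 at day 14. At day 14 there were 4 with DESeq2, 1 without a filter and 1 with a replicate block, and at day 7 there was 1 with only the groups compared. With each library left out, members called ranged from 0 to 1 in the SNI average and in sham day 21 against day 7, from 3 to 5 in the amputation average, from 1 to 4 at day 7 and from 1 to 3 at day 14. Relations with Acan that passed in the time course numbered 5, from 3 to 7 with a library left out and 3 without both libraries of low TMM factor, and 0 in the amputation table throughout.

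Over all genes, DESeq2 called 163 in the SNI average, 54 at day 7, 67 at day 14 and 12 at day 21, against 0. In the amputation average 2060 genes were called, with 264 under the balance covariate, 1114 with the block and 746 to 2463 with a library left out. At day 7 the count was 236, with 727 by DESeq2, 115 with the block, 49 with only the groups compared and 83 to 314 with a library left out. At day 14 it was 481, with 1878 by DESeq2, 56 with the block, 12 under the covariate and 32 to 1019 with a library left out. Between days, 106 genes in amputated digits became 473 by DESeq2, 2 under the covariate and 3 to 132 with a library left out, and 53 in unamputated digits became 149 by DESeq2, 21 without a filter, 6 with only the groups compared, 0 under the covariate and 0 to 71. Without sham day 21 replicate 2, 8333 genes differed between sham day 21 and day 7, 152 between SNI and sham at day 21 and 3439 in the SNI effect between days, against 0.

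Same-numbered libraries of the groups compared had r from -0.79 to 0.39 in the time course and from -0.20 to 0.02 in the amputation table, and 4 of 8 and 0 of 6 correlated best with their own number, so numbers were not taken as pairs over a whole table. At day 14 of the time course all 3 pairs were positive (0.11 to 0.24), and the block there left 0 genes called and Mgp at 0.99 (adjusted p = 0.609). Across SNI days, replicate 1 libraries deviated alike (r from 0.58 to 0.77), replicate 2 from 0.076 to 0.14 and replicate 3 from -0.28 to 0.56, a hint from the data and not the design. The block moved the SNI average of Acan from -0.72 to -1.12 and of Matn3 from 1.16 to 0.65, neither called. Under the replicate block Mgp had an amputation average of 1.15 (adjusted p = 4.96e-04), Clec3a at day 7 had -1.81 (adjusted p = 0.0580) and Cilp2 at day 14 had -1.40 (adjusted p = 0.0831).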
